A study of Homo sapiens with 6 samples.

Results

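The genes described here are 30 genes of cholesterol synthesis, cholesterol uptake and transport, and the control of both by the transcription factor SREBP2. They were taken by symbol from textbook knowledge of the pathway, with no measured value in the rule, from 38041 genes in the table. The list was chosen with earlier results of these data known. Its counts beside those of all genes are therefore descriptive, and no set test was made. The list holds 7 enzymes from acetyl-CoA to farnesyl diphosphate, 11 enzymes from squalene to cholesterol, 4 genes of SREBP2 control, 5 of uptake and transport inside the cell, and 3 of efflux and ester storage. RNA was sequenced from HCT116, an established line of human colorectal carcinoma, in 3 control libraries (NC) and 3 libraries from cells that overexpress EPHX2 (overEXP), the gene of soluble epoxide hydrolase, which converts epoxides of fatty acids to diols. Per the study, EPHX2 was introduced with a lentivirus and stable cells were selected with puromycin. The promoter that drives EPHX2 was not stated. The titles describe NC as carrying an empty vector, whereas other label fields describe untreated or normally cultured cells, so whether the controls went through infection and selection is unclear. Each group comprised 3 cell lines, and nothing stated whether they were derived independently. The p-values therefore measure only how far these libraries differ among themselves, and that spread may be technical.

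Cells make cholesterol from acetyl-CoA through mevalonate and the isoprenoid diphosphates to squalene, the first sterol lanosterol, and a series of demethylation, isomerization and reduction steps. SREBP2, encoded by SREBF2, is held in the endoplasmic reticulum membrane together with SCAP while sterols are plentiful, because the INSIG proteins retain the complex there. When membrane cholesterol falls, SCAP escorts SREBP2 to the Golgi, where it is cleaved, and its released part enters the nucleus and activates genes of synthesis and uptake. INSIG1 is itself a target of SREBP2. Nuclear SREBP2 acts at sterol regulatory elements together with NF-Y, a factor that binds CCAAT sequences, and with Sp1, which binds GC boxes.

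EPHX2 was 1.53, 1.96 and 1.50 FPKM (fragments scaled by transcript length and by library size) in the NC libraries and 157, 162 and 181 FPKM in the overEXP libraries, which follows the labels. All 5 epithelial markers reached 1 FPKM in all 6 libraries. The overEXP replicate 2 library stood apart. It held 129 genes at 1 FPKM or more that were under 0.1 FPKM in all the other libraries, against 0 to 7 such genes in each of those, and its 5 markers of differentiated intestinal cells summed to 262 FPKM against 0.0683 to 0.180 FPKM elsewhere. Its 6 fibroblast markers summed to 12.5 FPKM against 2.34 to 3.58 FPKM elsewhere and its 5 leukocyte markers to 6.26 FPKM against at most 0.814 FPKM. Endothelial markers summed to at most 0.357 FPKM and those of liver and adrenal cells to at most 0.221 FPKM in all libraries. Mitochondrially encoded genes took 34.9% to 39.9% of summed FPKM in overEXP and 29.6% to 34.6% in NC. When values were rescaled to TPM over nuclear genes alone, which takes out the mitochondrial genes, INSIG1, STARD4, IDI1, MSMO1, FDFT1 and TMEM97 passed, as they did on FPKM, and the median log2 difference of the pathway was 0.24. Without overEXP replicate 2, INSIG1 and IDI1 passed. Read depth could not be recovered from the deposited values. In bulk RNA, fewer cells of a type and less RNA per cell cannot be told apart.

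A gene entered the test if 3 or more libraries reached 1 FPKM, which 28 of the 30 genes did. Differences were taken as log2(FPKM + 1) and fitted with limma. Among 12281 genes tested, 154 were higher in overEXP at an adjusted p under 0.05 (1.25%) and 366 were lower (2.98%). Of the 28, 6 were higher, namely INSIG1, STARD4, IDI1, MSMO1, FDFT1 and TMEM97. None of the 28 was lower, whether at an adjusted or an unadjusted p under 0.05, while 17 were higher at an unadjusted p under 0.05. Over all 12281 genes tested, 805 were higher and 2012 lower at an unadjusted p under 0.05. The median log2 difference of the 28, overEXP minus NC, was 0.26, and that of all genes tested was −0.05. The difference was positive for 24 of the 28 (85.7%) and for 4715 of all 12281 (38.4%). The libraries of the 2 groups did not overlap, with overEXP higher, for 17 of the 28, beside 9.23% of all genes tested. They did not overlap with overEXP lower for 2 of the 28, NPC2 and SOAT1, beside 21.7% of all genes tested. Scaling moved these counts. After rescaling to TPM, which gives every library the same sum, 95 genes were higher and 866 lower over the whole table, with 3 of the 28 higher. With median-of-ratios scaling the counts were 345 and 359, with 12 of the 28 higher, and with quantile normalization 330 and 395, with 8 higher. None of the 28 was lower under any of the 3. The median of all genes was −0.17 after TPM rescaling and that of the 28 was 0.13, and the gap between both medians, 0.32 as reported, lay within 0.27 to 0.35 in every setting tried.

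**Figure D1:**
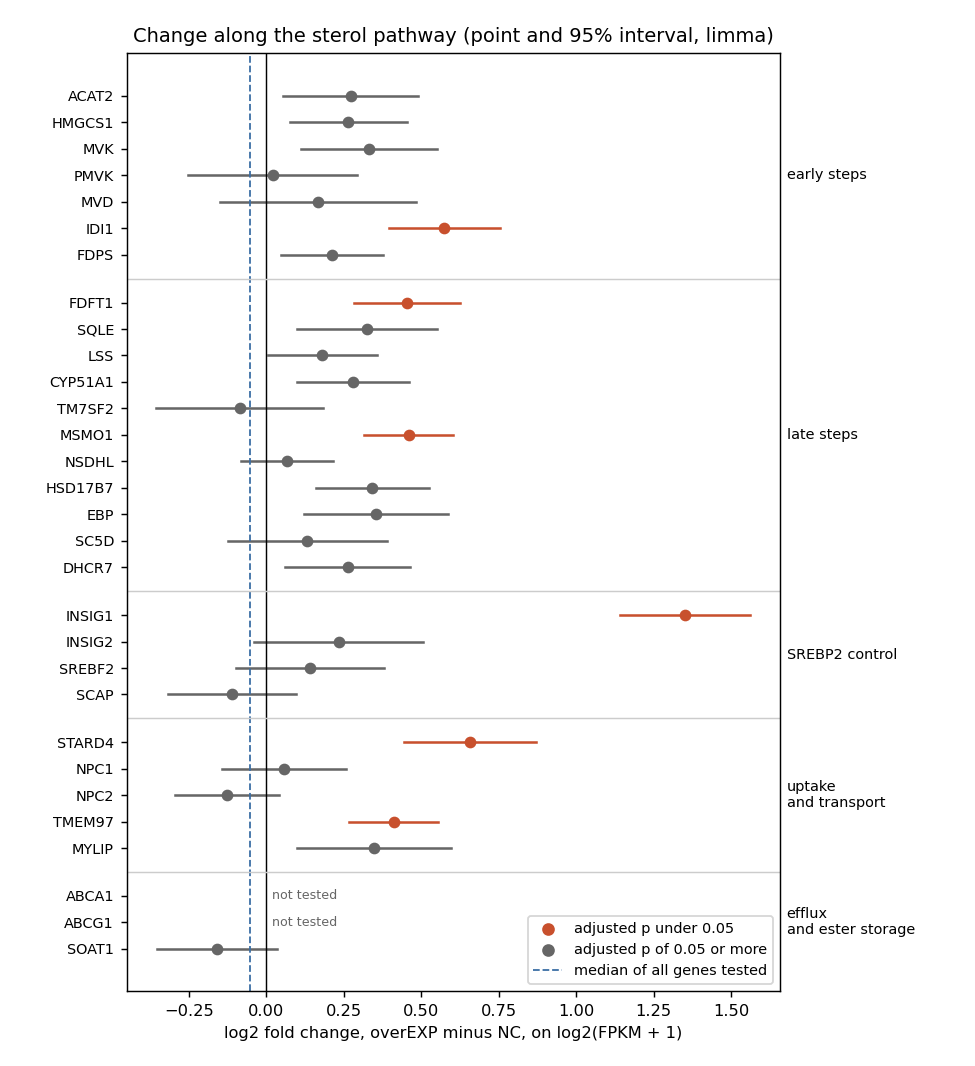
Log2 difference, overEXP minus NC, on the log2(FPKM + 1) scale for the 28 genes tested, grouped by role, with 95% confidence intervals from limma and a dashed line at the median of all genes, −0.05. INSIG1 lies farthest to the right at 1.35, the 6 genes at an adjusted p under 0.05 all lie above 0, and SOAT1 has the lowest value at −0.16.

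Promoter sequences of 4 of the genes that passed are printed here, because they share short letters known to bind NF-Y, and a stretch of SREBF2 is printed because it alone among these genes matched the sterol element searched for. The sequences are from RefSeq (GRCh38.p14), read 5′ to 3′ on the gene's strand. The stretches of the 4 genes hold no annotated exon, whereas that of SREBF2 lies inside an exon of the long noncoding RNA SREBF2-AS1 on the opposite strand. Capitals mark CCAAT or its reverse complement ATTGG, and in SREBF2 also TCACCCCAC. Of the other genes that passed, FDFT1 was not in the promoter table and IDI1, with 3 listed starts, is not printed.
INSIG1, chr7:155297628-155297775, plus strand: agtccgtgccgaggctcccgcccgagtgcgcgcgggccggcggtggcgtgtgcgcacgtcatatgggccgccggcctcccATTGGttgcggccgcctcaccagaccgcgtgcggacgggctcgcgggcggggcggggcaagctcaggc
STARD4, chr5:111512591-111512785, minus strand: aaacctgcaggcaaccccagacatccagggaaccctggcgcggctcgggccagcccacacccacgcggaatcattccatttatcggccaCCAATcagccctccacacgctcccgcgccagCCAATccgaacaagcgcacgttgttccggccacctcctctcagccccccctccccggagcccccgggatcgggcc
MSMO1, chr4:165327419-165327666, plus strand: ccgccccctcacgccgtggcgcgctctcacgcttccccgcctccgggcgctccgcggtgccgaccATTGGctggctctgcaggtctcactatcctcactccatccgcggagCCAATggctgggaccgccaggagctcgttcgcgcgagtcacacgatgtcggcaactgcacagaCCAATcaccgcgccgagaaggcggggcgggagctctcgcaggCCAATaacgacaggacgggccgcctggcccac
TMEM97, chr17:28318950-28319199, plus strand: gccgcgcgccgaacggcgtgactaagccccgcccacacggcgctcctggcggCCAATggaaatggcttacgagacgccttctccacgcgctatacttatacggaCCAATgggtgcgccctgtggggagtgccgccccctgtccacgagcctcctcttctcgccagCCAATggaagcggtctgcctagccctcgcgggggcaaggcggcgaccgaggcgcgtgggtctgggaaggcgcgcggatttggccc
SREBF2, chr22:41832965-41833008, plus strand: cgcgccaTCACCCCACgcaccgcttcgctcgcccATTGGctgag
MSMO1, which encodes the oxidase that removes the methyl groups at carbon 4 of sterols, carries 4 CCAAT letters in both orientations, TMEM97 carries 3, STARD4 carries 2 and INSIG1 carries 1. The search covered the 250 bases before each listed start on both strands. Of the 30 genes, 26 matched the table by symbol, with 33 starts. CCAAT stood in 20 of the 26 genes (76.9%), beside 41.7% of the 8821 tested genes with an entry and 37.0% of all 27305 genes in the table. The GC box GGGCGG stood in 25 of the 26 (96.2%), beside 77.1% of the tested genes. TCACNCCAC stood only in SREBF2 (1 of 26, 3.85%), beside 1.22% of the tested genes. In IDI1 and NSDHL 2 of the CCAAT matches, on opposite strands, overlap each other. Among the tested genes of the pathway with an entry, 5 of the 20 with CCAAT were higher in overEXP, with a median difference of 0.26, and 0 of the 5 without it, with a median of 0.06. Those 5 were CYP51A1, INSIG2, NPC1, PMVK and SCAP, too few for a comparison. Over all tested genes with an entry, 57 of 3678 with CCAAT were higher (1.55%, median −0.04) and 52 of 5145 without it (1.01%, median −0.07), and 150 and 225 passed in either direction. A match describes the letters of this window and is neither a measured binding site nor a cause.

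**Figure D2:**
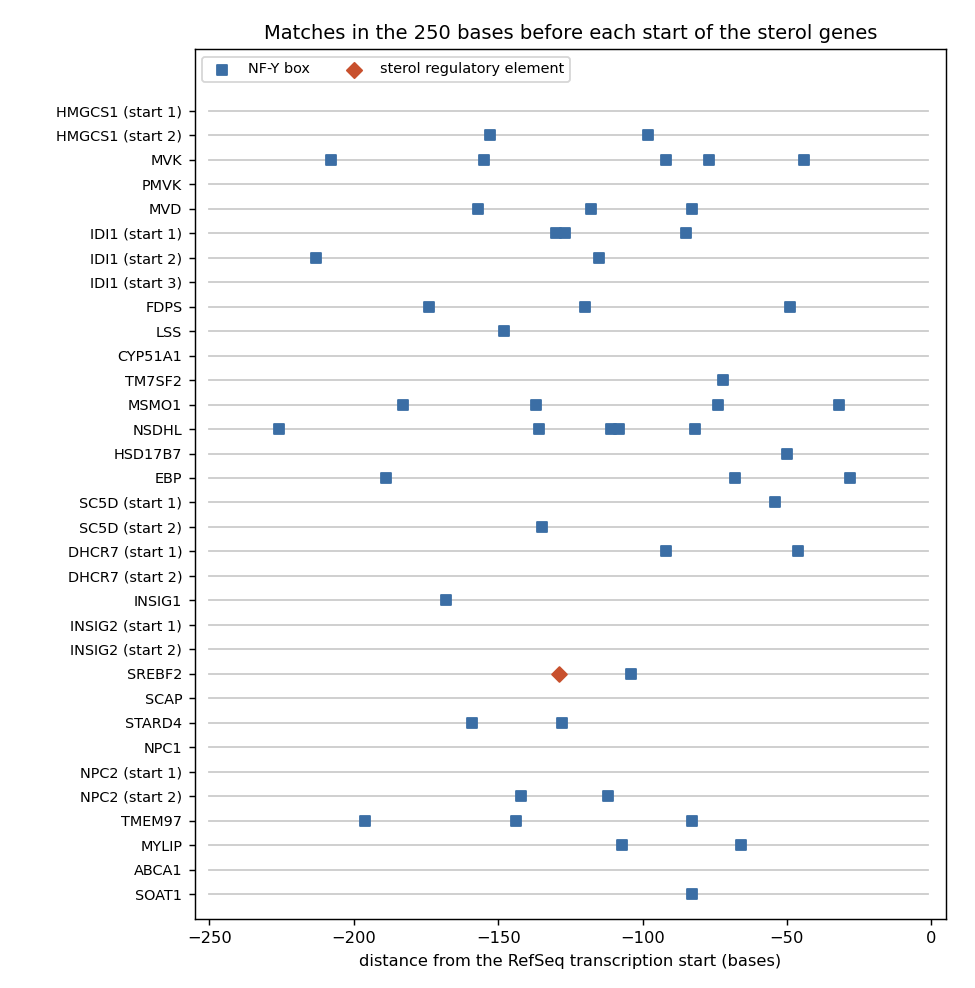
Positions of CCAAT (squares, NF-Y box) and TCACNCCAC (diamond, sterol regulatory element) on either strand in the 250 bases before each of 33 listed starts, on a horizontal axis in bases from the start. CCAAT matches are spread over 20 of the 26 genes, whereas the single TCACNCCAC match lies in SREBF2.

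INSIG1 showed the largest difference of the 28 genes. It encodes the endoplasmic reticulum protein that retains the SCAP and SREBP2 complex and lies at chr7:155297776-155310235 on the plus strand (GRCh38, GENCODE v44). Its level was 10.3, 9.27 and 8.09 FPKM in NC and 24.4, 24.6 and 26.1 FPKM in overEXP. The lowest overEXP library thus lay far above the highest NC library. The mean rose from 9.22 ± 1.11 to 25.0 ± 0.925 FPKM (SD, n = 3 each), a ratio of 2.71, with a log2 difference of 1.35 (95% confidence interval 1.14 to 1.56) and a limma adjusted p of 0.00201. By log2 difference it ranked 11 of all 12281 genes tested. It passed in all 15 alternative settings, with log2 differences of 1.22 to 1.43.

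INSIG2, the second INSIG gene, which has the same retaining role, was 4.79, 4.38 and 4.99 FPKM in NC and 4.82, 5.64 and 6.85 FPKM in overEXP, and the groups overlapped. Its log2 difference of 0.23 (−0.04 to 0.51) did not pass the test (limma adjusted p = 0.281). The ratio of INSIG1 to INSIG2 within a library was 2.15, 2.12 and 1.62 in NC and 5.06, 4.36 and 3.80 in overEXP. A single scaling factor per library cannot alter this ratio. Neither transcript of the complex itself passed. SREBF2 was 19.5, 20.8 and 19.6 FPKM in NC and 18.8, 24.3 and 23.8 FPKM in overEXP, with the lowest value of all 6 libraries in overEXP replicate 1 (log2 difference 0.14, −0.10 to 0.38, limma adjusted p = 0.445). SCAP was 9.76, 9.51 and 9.03 FPKM in NC and 7.66, 9.53 and 8.88 FPKM in overEXP (log2 difference −0.11, −0.32 to 0.09, limma adjusted p = 0.487). These are transcript levels, and cleavage of SREBP2 was not measured.

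**Figure D3:**
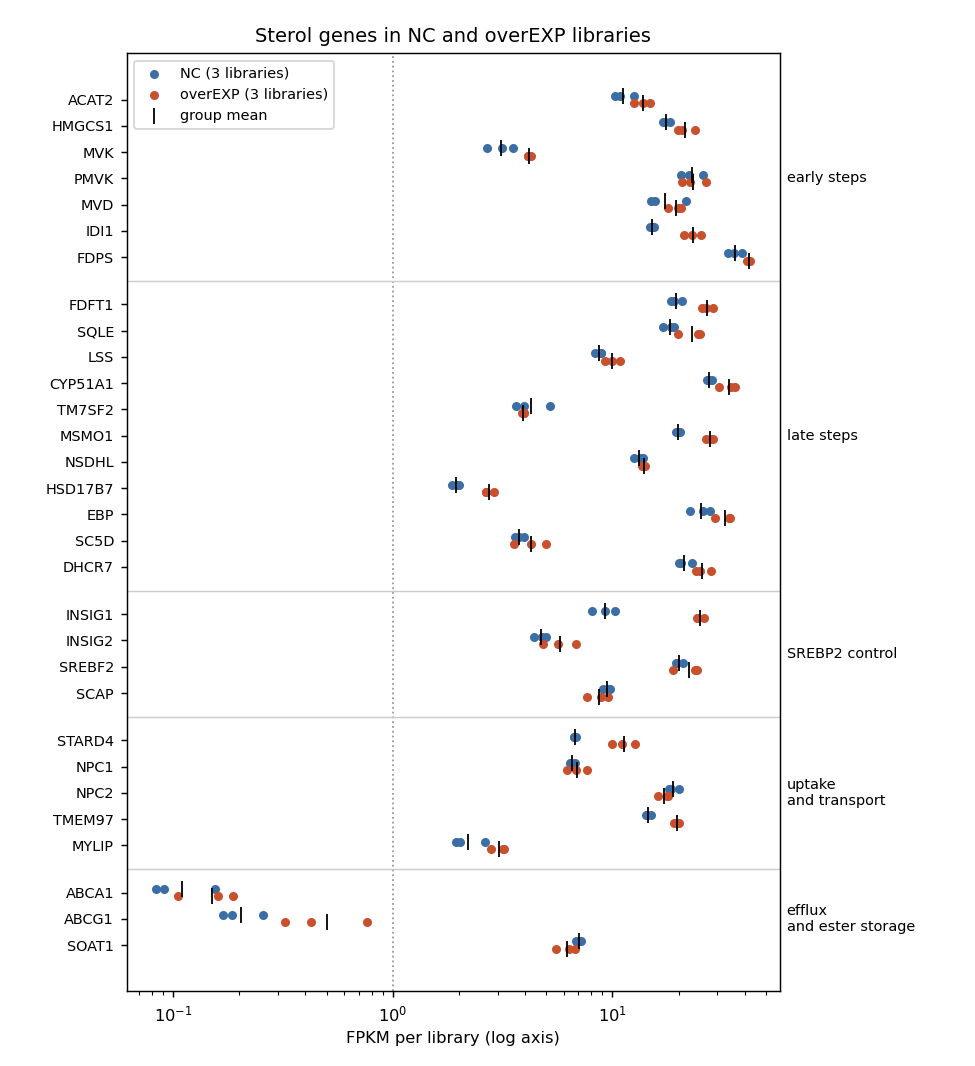
FPKM on a log10 axis for the 30 genes, grouped by role, with a point for each of 3 NC (blue) and 3 overEXP (orange) libraries, a tick for each group mean and a dotted line at 1 FPKM. INSIG1 shows the widest separation, with NC between 8.09 and 10.3 FPKM and overEXP between 24.4 and 26.1 FPKM, whereas ABCA1 and ABCG1 lie under 1 FPKM in all libraries.

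Of the 7 enzymes from acetyl-CoA to farnesyl diphosphate, 1 was higher at an adjusted p under 0.05, beside 1.25% of all genes tested. All 7 differences were positive, beside 38.4% of all genes. The groups did not overlap for 5, with overEXP higher, beside 9.23% of all genes. The median log2 difference was 0.26, with a range of 0.02 to 0.57. IDI1 encodes the isomerase that interconverts isopentenyl and dimethylallyl diphosphate. It was 15.4, 14.8 and 15.3 FPKM in NC and 23.0, 21.2 and 25.2 FPKM in overEXP. The NC libraries lay close together and all overEXP libraries lay above them. The mean rose from 15.2 ± 0.328 to 23.1 ± 2.01 FPKM (SD, n = 3 each), with a log2 difference of 0.57 (0.40 to 0.75) and a limma adjusted p of 0.0136. IDI1 missed the threshold in 3 of the 15 alternatives, with an adjusted p of 0.0749 without the filter on low values, 0.0814 without NC replicate 2 and 0.0709 without NC replicate 3.

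The other early enzymes had smaller differences that did not pass. HMGCS1, which makes HMG-CoA, was 17.0, 17.4 and 18.3 FPKM in NC and 19.8, 20.6 and 23.6 FPKM in overEXP (log2 difference 0.26, limma adjusted p = 0.104). MVK, the mevalonate kinase, was 3.53, 3.13 and 2.69 FPKM in NC and 4.26, 4.12 and 4.11 FPKM in overEXP (0.33, adjusted p = 0.0899). In both genes, and in ACAT2 and FDPS, every overEXP library lay above every NC library. ACAT2, the cytosolic thiolase that joins acetyl-CoA units, had a mean of 11.2 ± 1.14 FPKM in NC and 13.7 ± 1.16 FPKM in overEXP (0.27, adjusted p = 0.138), and FDPS, the farnesyl diphosphate synthase, 36.0 ± 2.59 and 41.7 ± 0.746 FPKM (0.21, adjusted p = 0.128). PMVK and MVD, the next kinase and the decarboxylase, overlapped between groups. PMVK had almost equal means, 22.9 ± 2.76 FPKM in NC and 23.3 ± 3.11 FPKM in overEXP (0.02, −0.25 to 0.29), and its sign depended on the scaling. MVD had a log2 difference of 0.17 (−0.15 to 0.48). The exons of ACAT2 overlap those of TCP1 on the opposite strand over 454 bases, 17.2% of the ACAT2 exons, and whether counting used strand was not stated, so reads of both cannot be told apart there. TCP1 had a mean of 78.6 FPKM in NC and 73.3 FPKM in overEXP.

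Of the 11 enzymes from squalene to cholesterol, 2 were higher at an adjusted p under 0.05, beside 1.25% of all genes tested. Here 10 differences were positive, beside 38.4% of all genes. The groups did not overlap for 8, always with overEXP higher, beside 9.23% of all genes. The median log2 difference was 0.28, with a range of −0.09 to 0.46. MSMO1 was 19.4, 20.1 and 20.3 FPKM in NC and 26.6, 28.0 and 28.6 FPKM in overEXP. The gap between the groups was wider than the whole range within either. Its mean rose from 19.9 ± 0.471 to 27.8 ± 1.02 FPKM (SD, n = 3 each), with a log2 difference of 0.46 (0.32 to 0.60) and a limma adjusted p of 0.0136. FDFT1 encodes squalene synthase, the first enzyme committed to sterols. It was 20.7, 19.1 and 18.5 FPKM in NC and 28.8, 26.7 and 25.5 FPKM in overEXP, again with no overlap. Its mean rose from 19.4 ± 1.11 to 27.0 ± 1.67 FPKM, with a log2 difference of 0.45 (0.28 to 0.63) and a limma adjusted p of 0.0244. MSMO1 passed in 10 of the 15 alternatives, and its adjusted p was 0.0571 without the filter, 0.0737 after TPM rescaling, 0.0814 without NC replicate 2, 0.0733 without NC replicate 3 and 0.0582 without overEXP replicate 2. FDFT1 also passed in 10, and the same 5 settings gave 0.0977, 0.0636, 0.119, 0.115 and 0.0771.

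SQLE, CYP51A1, EBP, HSD17B7, DHCR7 and LSS did not pass, although every overEXP library lay above every NC library in each of them. HSD17B7, a sterol 3-ketoreductase, came closest to the threshold at 1.95, 1.86 and 2.01 FPKM in NC and 2.66, 2.87 and 2.65 FPKM in overEXP (log2 difference 0.34, limma adjusted p = 0.0565). Its level is uncertain, because the near copy HSD17B7P2 may take some of its reads and had means of 1.34 FPKM in NC and 1.50 FPKM in overEXP. EBP, the isomerase that moves the double bond of the sterol nucleus, was 27.9, 25.8 and 22.4 FPKM in NC and 34.1, 34.4 and 29.4 FPKM in overEXP (0.35, adjusted p = 0.0891). CYP51A1, which removes the methyl group at carbon 14 of lanosterol, was 28.3, 27.6 and 26.9 FPKM in NC and 30.6, 34.7 and 36.2 FPKM in overEXP (0.28, adjusted p = 0.0857). SQLE, the squalene epoxidase and a controlled step of the pathway, was 19.1, 17.0 and 18.5 FPKM in NC and 19.9, 24.4 and 24.9 FPKM in overEXP. Its overEXP replicate 1 library lay only just above the NC libraries (0.32, adjusted p = 0.101). DHCR7, the reductase that yields cholesterol in the last step of one branch, and LSS, which closes the rings to lanosterol, had log2 differences of 0.26 and 0.18 (adjusted p = 0.124 and 0.208). NSDHL, SC5D and TM7SF2 overlapped between groups. NSDHL works with MSMO1 in removing the carbon 4 methyl groups, and its log2 difference was 0.07 (−0.08 to 0.21), although a direct test against MSMO1 was not made. SC5D, the sterol desaturase, had a log2 difference of 0.13 (−0.12 to 0.39). TM7SF2, one of the carbon 14 reductases, was the single enzyme below 0 (−0.09, −0.35 to 0.18), where NC replicate 1 was the highest library at 5.21 FPKM.

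Over all 18 enzymes, the groups did not overlap with overEXP higher for 13, beside 9.23% of all genes tested. The summed level of the 18 enzymes was 307, 280.0 and 274 FPKM in NC and 348, 348 and 359 FPKM in overEXP. The FPKM of all genes also summed higher in every overEXP library (321825, 315620 and 288471) than in any NC library (282322, 277915 and 277441). As a share of the FPKM of nuclear genes, which takes out the mitochondrial transcripts, the sums of the 18 enzymes were 0.154%, 0.150% and 0.151% in NC. In overEXP they were 0.176%, 0.183% and 0.191%. The 3 shares of each group did not overlap with those of the other. Libraries of a group also differed, since NC replicate 1 held the highest NC value for 17 of the 30 genes and overEXP replicate 3 the highest overEXP value for 15.

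Of the 5 genes of uptake and transport, 2 were higher at an adjusted p under 0.05, beside 1.25% of all genes tested. The median log2 difference of the 5 was 0.35. STARD4 encodes a soluble protein that carries cholesterol between membranes. It was 6.67, 6.83 and 6.68 FPKM in NC and 9.97, 11.0 and 12.7 FPKM in overEXP. The NC libraries were nearly equal, and all overEXP libraries lay above them, with more spread. Its mean rose from 6.73 ± 0.0863 to 11.2 ± 1.39 FPKM (SD, n = 3 each), with a log2 difference of 0.66 (0.44 to 0.87) and a limma adjusted p of 0.0151. TMEM97, a membrane protein of the endoplasmic reticulum and lysosome that binds NPC1, was 14.4, 15.0 and 14.2 FPKM in NC and 19.0, 20.2 and 19.6 FPKM in overEXP. The gap between the groups was again wider than the range within either. Its mean rose from 14.5 ± 0.411 to 19.6 ± 0.568 FPKM, with a log2 difference of 0.41 (0.27 to 0.55) and a limma adjusted p of 0.0184. Its exons overlap those of IFT20 on the opposite strand over 361 bases (12.3%), and IFT20 was lower in level, with means of 2.90 and 3.28 FPKM. STARD4 passed in 10 of the 15 alternatives and missed with an adjusted p of 0.0859 without the filter, 0.0546, 0.0792 and 0.0733 without NC replicates 1, 2 and 3, and 0.0556 without overEXP replicate 2. TMEM97 passed in 9, and those same 5 settings gave 0.0592, 0.0603, 0.0898, 0.106 and 0.0743, with 0.104 after TPM rescaling.

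MYLIP, a ubiquitin ligase that marks lipoprotein receptors for breakdown and is a known target of the liver X receptors, was 2.03, 2.63 and 1.94 FPKM in NC and 2.79, 3.17 and 3.21 FPKM in overEXP. The groups did not overlap, but the difference did not pass (log2 difference 0.35, 0.10 to 0.60, limma adjusted p = 0.105). NPC1 and NPC2 move cholesterol out of lysosomes and did not pass either. NPC1 was 6.54 ± 0.207 FPKM in NC and 6.87 ± 0.731 FPKM in overEXP (0.06, −0.14 to 0.26), with overlap. NPC2 was 18.4, 20.0 and 18.1 FPKM in NC and 17.6, 17.9 and 16.1 FPKM in overEXP (−0.13, −0.29 to 0.04, adjusted p = 0.341). SOAT1, which esterifies cholesterol for storage, was 7.14, 6.84 and 7.16 FPKM in NC and 6.37, 5.55 and 6.76 FPKM in overEXP. Each overEXP library of SOAT1 lay below each NC library, with a log2 difference of −0.16 (−0.35 to 0.03, limma adjusted p = 0.3).

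The sterol exporters ABCA1 and ABCG1, both targets of the liver X receptors, were too low to be tested. ABCA1 was 0.0839, 0.155 and 0.0905 FPKM in NC and 0.105, 0.188 and 0.160 FPKM in overEXP, with overlap. ABCG1 was 0.185, 0.169 and 0.256 FPKM in NC and 0.322, 0.762 and 0.425 FPKM in overEXP. The groups did not overlap for ABCG1, and its highest value came from overEXP replicate 2, the library that stood apart. When all genes were fitted without the filter, ABCG1 had a limma adjusted p of 0.512 and ABCA1 of 0.683.

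**Figure D4:**
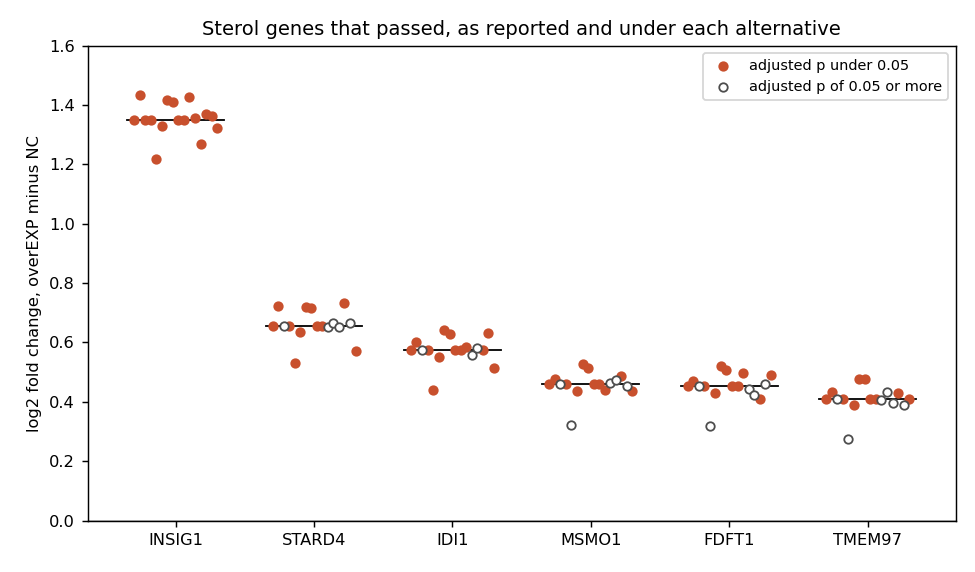
Log2 difference, overEXP minus NC, of the 6 genes that passed, as reported (horizontal line and first point) and under 15 alternative settings, with filled points at a limma adjusted p under 0.05 and open points at 0.05 or more. INSIG1 passed in all 15 and lay between 1.22 and 1.43, IDI1 passed in 12, STARD4, MSMO1 and FDFT1 in 10 each and TMEM97 in 9.

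Counts of the pathway moved with single libraries. Without NC replicate 2 or NC replicate 3, INSIG1 alone of the 28 passed, and without overEXP replicate 2 only INSIG1 and IDI1 did. Without NC replicate 1 there were 4 (FDFT1, IDI1, INSIG1 and MSMO1). Without overEXP replicate 1 there were 8, and without overEXP replicate 3 there were 6, in each case with the 6 named genes among them. Without overEXP replicate 2 the median of the 28 was 0.27 and that of all genes −0.06.

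Neighbouring genes of sterol metabolism were read from 6 further lists of 70 genes, of which 58 were tested. At an adjusted p under 0.05, 3 were higher and 1 was lower, beside 1.25% and 2.98% of all genes tested. The median log2 difference of the 58 was −0.04. In the branches that use farnesyl diphosphate for dolichol, ubiquinone, haem A and prenylated proteins, 15 genes were tested. DHDDS, a subunit of the prenyltransferase that starts dolichol synthesis, was the single gene below the threshold, at 7.17, 7.92 and 8.53 FPKM in NC and 5.15, 5.65 and 5.70 FPKM in overEXP, and it fell by 0.45 on the log2 scale (limma adjusted p = 0.0357). The adjusted p of DHDDS was 0.0199 after TPM rescaling, 0.0599 over nuclear genes and 0.053 or more whenever a library was left out. None of the 15 was higher at either an adjusted or an unadjusted p under 0.05. At an unadjusted p under 0.05, 5 of the 15 were lower, DHDDS among them, beside 2012 of all 12281 genes tested. The median of the 15 was −0.10. The groups did not overlap with overEXP lower for 6 of the 15, beside 21.7% of all genes tested. Among 12 genes that transport, cleave or degrade SREBPs and INSIGs, none passed with limma in either direction. At an unadjusted p under 0.05, 3 of the 12 were lower, beside 2012 of all 12281 genes tested. The median of the 12 was −0.12. The smallest adjusted p was that of SPRING1, which takes part in the cleavage of SREBPs (log2 difference −0.22, adjusted p = 0.109). VCP, the ATPase that extracts proteins from the endoplasmic reticulum for degradation, followed (−0.16, adjusted p = 0.166). The 11 tested genes of sterol traffic between membranes had a median of −0.03. Of these only CYB5B passed, and it was higher (0.32, limma adjusted p = 0.042). CYB5B is a cytochrome b5, listed here although it is an electron carrier and not a sterol carrier. It was 48.2, 45.0 and 44.2 FPKM in NC and 55.7, 56.9 and 59.4 FPKM in overEXP. Its adjusted p was 0.0208 with median-of-ratios scaling, 0.263 after TPM rescaling and 0.0734 over nuclear genes. Whenever a library was left out, it was 0.0567 or more. All 8 tested genes of lipoprotein receptors and liver X receptors overlapped between groups, and none had an unadjusted p under 0.05 in limma. LRPAP1, a chaperone of lipoprotein receptors, had the smallest adjusted p there (−0.06, 0.628), followed by RXRB, a partner of the liver X receptors (−0.08, 0.682). The genes of oxysterol and bile acid synthesis that were in the table lay under the filter.

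The list of SREBP1 and fatty acid synthesis genes, the other arm under SREBP control, had 12 genes tested. At an adjusted p under 0.05, 2 of the 12 were higher, beside 1.25% of all genes tested. The median log2 difference of the 12 was 0.22. SCD, the stearoyl-CoA desaturase, was 119, 114 and 115 FPKM in NC and 191, 202 and 228 FPKM in overEXP. It rose from 116 ± 2.93 to 207 ± 19.3 FPKM (SD, n = 3 each), with a log2 difference of 0.82 and a limma adjusted p of 0.00799. ACSS2, which makes cytosolic acetyl-CoA from acetate, was 5.50, 5.40 and 5.21 FPKM in NC and 7.81, 10.9 and 9.69 FPKM in overEXP, with no overlap. Its log2 difference was 0.71, between those of STARD4 and INSIG1 (limma adjusted p = 0.0228). SREBF1 itself had a log2 difference of 0.43 and did not pass (limma adjusted p = 0.0576). ME1, of the same list, lay lower in every overEXP library than in any NC library (−0.29, limma adjusted p = 0.0576). FASN and ACLY differed little, at 0.02 and 0.07. Differences were positive for 9 of the 12, beside 38.4% of all genes tested. The groups did not overlap for 6 with overEXP higher, beside 9.23% of all genes. They did not overlap with overEXP lower for ME1 alone, beside 21.7% of all genes.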

How the data were processed

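RNA of 6 HCT116 libraries was analysed, 3 NC and 3 overEXP, grouped by their titles. Per the study's methods and the submitters' processing notes, reads were filtered with FastQC, aligned to GRCh38 with HISAT2 (2.0.4) and assembled with StringTie, and transcripts were merged with gffcompare. The authors deposited FPKM per gene. Strandedness and the library kit are not given in the sources used here. The table also holds the authors' own fold changes, p-values, q-values and calls, which were not used.

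Genes that reached 1 FPKM in 3 or more libraries (12281 of 38041) were tested on log2(FPKM + 1), so fold changes of low genes are understated, with limma 3.58.1 (R 4.3.3, trended variance) and Benjamini-Hochberg adjustment over all genes tested, at a threshold of 0.05. The model was tested on simulated data. Low FPKM values showed no steps of whole reads, so depth is unknown and no counting interval is given. An exact permutation test of 3 against 3 libraries cannot go below p = 0.1 and was not used. Intervals are 95% confidence intervals from limma.

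All 30 genes are accounted for, with full values for those that passed and for INSIG1, INSIG2, SREBF2, SCAP, ABCA1 and ABCG1. Values per library of other genes were added after they were seen. Genes of the 6 further lists were named where they passed or, where none did, for the smallest adjusted p. SREBF1, ME1, FASN and ACLY were named after their values were seen. The 30 genes and the 6 lists were chosen with earlier results of these data known. The ratios of INSIG1 to INSIG2 and of SREBF2 to SCAP, and the printing of the SREBF2 stretch, were also chosen after their values were seen. Of the 70 genes in the further lists, 69 were in the table. Gene positions are from GENCODE v44. Alternatives were a pseudocount of 0.1, no filter, a filter in all 6 libraries, TPM, TPM over nuclear genes, median-of-ratios scaling, quantile normalization, no variance trend, a replicate block and leaving out each library.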

Additional observations from a re-analysis of the deposited data

How the results depend on the processing

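Of the 28 genes of the pathway that were tested, 6 were higher as reported, and this count was 1 without the filter on low values, 3 after TPM rescaling and 12 with median-of-ratios scaling, and 1 to 8 when a library was left out. It was 0 for lower in every setting. Their median log2 difference of 0.26 became 0.13 after TPM rescaling, 0.33 with median-of-ratios scaling and 0.32 with quantile normalization, and 0.20 to 0.31 when a library was left out. The median of all genes, −0.05, became −0.17 after TPM rescaling and 0.0038 with median-of-ratios scaling, and lay between −0.09 and −0.02 when a library was left out. Over all genes, 154 higher and 366 lower became 3 and 2 without the filter, 95 and 866 after TPM rescaling, 345 and 359 with median-of-ratios scaling and 330 and 395 with quantile normalization, and 23 to 201 and 20 to 386 when a library was left out. In the further lists, 3 higher became 0 without the filter, 5 with the filter in all 6 libraries, and 6 with either median-of-ratios scaling or quantile normalization, and 1 to 5 when a library was left out. There 1 lower became 0 without the filter, 5 after TPM rescaling and 0 after TPM rescaling over nuclear genes, and 0 to 1 when a library was left out. The sign turned for 4 genes that did not pass: PMVK (0.02 as reported) at −0.12 after TPM rescaling, −0.0021 over nuclear genes and −0.079 to 0.11 when a library was left out, TM7SF2 (−0.09) at −0.17 to 0.039 when a library was left out, NSDHL (0.07) at −0.067 after TPM rescaling, and NPC1 (0.06) at −0.066 after TPM rescaling and −0.011 to 0.12 when a library was left out. Beyond the smaller number of libraries or the changed set of genes tested, the cause was not tested. Deviations of same-numbered libraries correlated across genes at r = 0.36, −0.02 and 0.37 for numbers 1, 2 and 3, and not every library correlated best with its own number, so the numbers were not taken to pair the libraries. With the number as a replicate block, the 6 genes passed again, and 118 genes were higher and 213 lower over the whole table. Depth is unknown, and the smallest log2 difference that passed among the 28 genes was 0.41, in TMEM97.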
